A study of Mus musculus with 12 samples.

Results

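The genes described here are mouse zinc finger genes named Zfp and a number, taken as every row of both deposited site lists whose annotated gene has such a name. In the list made from mice at 4 °C, 124 of 11227 sites (1.10%, exact 95% interval 0.919 to 1.32) were annotated to 44 Zfp genes, of 5451 genes in that list. In the list made at 29 °C, 26 of 2183 sites (1.19%, 0.779 to 1.74) were annotated to 17 Zfp genes, of 1629 genes. Together 45 Zfp genes had a site, 16 of them in both lists.

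The sites are those of Rev-Erbα, the nuclear receptor encoded by Nr1d1, mapped by chromatin immunoprecipitation and sequencing in brown adipose tissue. All mice were of strain C57BL/6 and were kept for 1 week either at 4 °C or at 29 °C, which is thermoneutral for mice. Mice of genotype HA-RevErba, whose Rev-Erbα carries an HA epitope tag, gave 4 libraries at each temperature, and WT mice pulled down with the same HA magnetic beads gave 2 libraries at each temperature. The sources used here do not say how the tag was introduced, how old the mice were or whether a library came from 1 animal. The lists hold values of 4 pools, 1 for each genotype and temperature, so no difference between temperatures has a replicate check and none was tested. The libraries held 27 to 37.3 M (mega) reads that aligned exactly 1 time. The pools held 63.8 M (HA-RevErba 4 °C), 60.8 M (HA-RevErba 29 °C), 27.1 M (WT 4 °C) and 25.1 M (WT 29 °C). The pool sizes were thus 39.5% to 49.8% of these counts in their libraries, and the step that left out the other reads is not stated. The assay measures binding and not RNA, so the tissue label could not be checked against levels of marker genes. In whole tissue, fewer cells with bound receptor and less binding per cell cannot be told apart.

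Zinc finger proteins fold short loops around a zinc ion, and in most of them arrays of C2H2 fingers read DNA. Many mouse Zfp proteins carry a KRAB domain, recruit the corepressor Trim28 and silence transposable elements, and their genes often lie in clusters of near copies. Others are single genes with roles in differentiation: Zfp423 helps to commit precursor cells to the fat lineage, and its paralog Zfp521 opposes fat cell formation. Members with another kind of finger share the name, such as the CCCH proteins Zfp36l1 and Zfp36l2, which speed the decay of mRNAs with AU-rich elements.

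Values are FPKM, which in these lists is a density of reads over 200 bp windows and not gene expression. A distance is that from the window to the annotated transcription start, with negative values upstream. A site was shared when windows of both lists overlapped by at least 1 bp. A ratio is the HA-RevErba density at 4 °C over that at 29 °C, and the range in parentheses is its exact 95% interval, which covers counting error only and leaves out variation between mice. A site was called higher in the cold at a ratio of 2 or more. Windows of the 4 °C list were chosen by their density at 4 °C, which by itself favours high ratios, and windows of the 29 °C list the reverse. Window coordinates are those of the deposited lists, on build mm9.

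Of the 124 sites, 7 lay within 1 kb of a Zfp start, at Zfp51, Zfp326, Zfp366, Zfp703, Zfp715, Zfp740 and Zfp809. Promoters of 4 of these 7 genes were in the RefSeq table of build GRCm38.p6. The 250 bases upstream of annotated starts are shown for 3 of them: Zfp740, whose promoter site was the strongest of the 7, Zfp326, which was next, and Zfp715, whose promoter held its single site. Capitals mark AGGTCA, the core element of Rev-Erbα and of other nuclear receptors, searched on both strands.
Zfp740 start 1, chr15:102203750-102203999, plus strand: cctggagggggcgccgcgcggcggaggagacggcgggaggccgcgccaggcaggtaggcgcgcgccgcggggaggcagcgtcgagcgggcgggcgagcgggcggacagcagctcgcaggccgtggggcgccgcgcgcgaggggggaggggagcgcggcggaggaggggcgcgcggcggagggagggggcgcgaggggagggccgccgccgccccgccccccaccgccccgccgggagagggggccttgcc
Zfp740 start 2, chr15:102204321-102204570, plus strand: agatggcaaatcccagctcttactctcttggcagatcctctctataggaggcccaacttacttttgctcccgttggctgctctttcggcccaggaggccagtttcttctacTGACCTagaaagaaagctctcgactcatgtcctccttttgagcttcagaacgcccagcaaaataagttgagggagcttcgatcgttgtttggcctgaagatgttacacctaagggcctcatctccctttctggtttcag
Zfp326, chr5:105876318-105876567, plus strand: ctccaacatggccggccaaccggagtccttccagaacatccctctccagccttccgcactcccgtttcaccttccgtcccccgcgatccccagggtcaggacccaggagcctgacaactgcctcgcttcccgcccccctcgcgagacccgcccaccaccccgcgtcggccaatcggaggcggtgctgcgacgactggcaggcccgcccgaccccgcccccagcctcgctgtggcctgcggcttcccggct
Zfp715, chr7:43313301-43313550, minus strand: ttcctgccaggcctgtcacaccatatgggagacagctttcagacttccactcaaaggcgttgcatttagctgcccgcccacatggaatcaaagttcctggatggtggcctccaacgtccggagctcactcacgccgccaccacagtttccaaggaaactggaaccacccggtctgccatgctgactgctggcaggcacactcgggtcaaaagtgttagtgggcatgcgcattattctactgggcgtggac

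Start 2 of Zfp740 held the core element once, on the minus strand at -139 to -134 from the start. It was part of TAGGTCA, a longer form searched after the sequences had been seen. Start 1, which is 86% G and C, and the windows of Zfp326 and Zfp715 held none, nor did either start of Zfp809. Over all 32851 windows of this length, 14% held AGGTCA and 2.23% held TAGGTCA, against 46 of 406 (11.3%) and 11 of 406 (2.71%) windows of Zfp genes. The full monomer element AANTAGGTCA was in 0.177% of all windows and in none of the 406, and the tandem element AGGTCANNAGGTCA was in 0.00913% and in none. These letters describe the sequence and do not show where the receptor was bound. The windows of the site lists are on another build and were not laid over these promoters.

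The promoter site of Zfp740 (chr15:102034718-102034918, -184 bp from the start used in the lists) had 26.44 FPKM in the HA-RevErba pool at 4 °C and 14.40 at 29 °C, with 2.41 and 1.60 in WT. It was listed at both temperatures, and its ratio was 1.84 (1.53 to 2.22). A second Zfp740 site at -4.64 kb had 12.56 and 3.63 FPKM, a ratio of 3.47 (2.47 to 4.96), so the promoter was the stronger of the 2 sites and the one with the smaller ratio.

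The promoter site of Zfp326, a member of a complex that links splicing to transcript elongation, had 11.85 FPKM at 4 °C and 2.81 at 29 °C, with 1.67 and 2.40 in WT. At 29 °C the tagged pool was thus close to the WT level, and the ratio was 4.23 (2.90 to 6.34). The other 5 promoter sites had 3.62 to 7.46 FPKM at 4 °C and 1.49 to 3.63 at 29 °C. They belonged to Zfp703, a corepressor of the NET family, Zfp715, Zfp366, Zfp809 and Zfp51. Zfp809 is a KRAB protein that recruits Trim28 to retroviral DNA, and its site had 4.17 FPKM at 4 °C and 1.57 at 29 °C, the latter against 1.60 in WT. Of the 7 promoter sites, 6 were called higher in the cold; over all sites within 1 kb of a start, 491 of 568 (86.4%) were. Sites within 1 kb made up 5.65% of Zfp sites and 5.06% of all sites.

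Most Zfp sites belonged to genes with several sites (84.7%), as did most sites over all genes (73.5%). At 4 °C, 19 genes had 1 site, 11 genes had 2 and 14 genes had 3 or more. These 14 genes held 83 of the 124 sites (66.9%), against 52.4% of all sites at genes with 3 or more. Without Zfp608, 13 such genes held 62 of 103 sites. Genes with several sites were 25 of 44 (56.8%) among Zfp genes and 45.4% among all genes in the list. The mean was 2.82 sites per Zfp gene and 2.06 per gene overall. Zfp608 had 21 sites, more than any other of the 5451 genes, the next highest number being 17 at 3 genes. Of its sites, 19 lay beyond 50 kb from the start and 15 beyond 100 kb. Sites are assigned to the nearest start, so a gene with distant neighbours can take sites from a longer stretch. The part of this in the number was not tested. Zfp957 and Zfp462 had 8 each, Zfp950 had 6, Zfp326, Zfp423 and Zfp618 had 5, Zfp36l2, Zfp395, Zfp572 and Zfp648 had 4, and Zfp330, Zfp354c and Zfp438 had 3. The genes with 2 sites were Zfp42, Zfp217, Zfp366, Zfp532, Zfp609, Zfp652, Zfp703, Zfp704, Zfp706, Zfp740 and Zfp831.

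**Figure D1:**
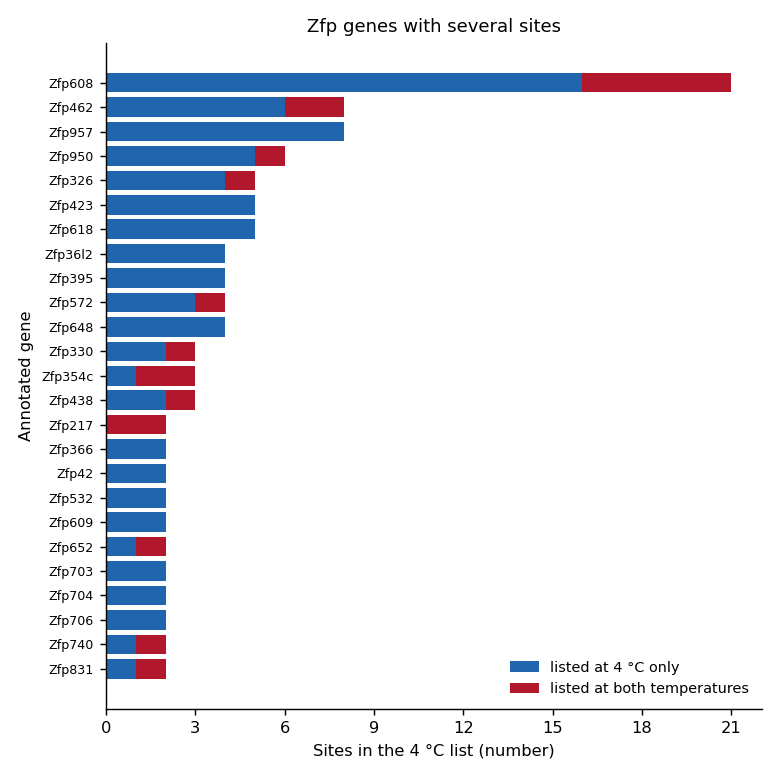
Number of sites in the 4 °C list (horizontal axis) for each of the 25 Zfp genes with several sites, split into sites listed at 4 °C only (blue) and at both temperatures (red). Zfp608 stands out with 21 sites, followed by Zfp462 and Zfp957 with 8.

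The strongest Zfp site was at Zfp652 (chr11:95640244-95640444, 30 kb, intergenic), rank 44 of 11227 by the authors' peak score. The tagged pools held 40.55 FPKM in the cold and 16.87 at 29 °C, with 3.14 and 2.60 in WT, and the ratio was 2.40 (2.04 to 2.84). A second site 1.02 kb away had 17.73 and 6.10 FPKM and was listed at 4 °C only. The next was at Zfp572, which RefSeq records as a transcribed pseudogene (chr15:59110488-59110688, -27.9 kb), with 35.22 and 14.98 FPKM and a ratio of 2.35 (1.98 to 2.81). Behind the Zfp608 and Zfp740 sites followed one annotated to Zfp354c, which lay in intron 3 of Adamts2 at +94.4 kb, with 24.87 and 8.15 FPKM and a ratio of 3.05 (2.43 to 3.87). Zfp839 (intron 5) had 22.67 and 6.75 FPKM, Zfp831 had 17.58 and 13.50, and Zfp770 (-3.77 kb) had 16.32 and 6.92. Among the 10 strongest Zfp sites, 6 were shared, and the ratios ran from 1.30 at Zfp831 to 3.36 at Zfp839. Each was above 1, but those at Zfp831, Zfp740 (1.84) and Zfp217 (1.92) were below the 2-fold call. Ranking by the score at 4 °C favours high ratios.

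Zfp608, a paralog of Zfp609, held 16.9% of the Zfp sites at 4 °C and 26.9% (7 of 26) at 29 °C, where 1 gene had more sites and the highest number was 9. Its 21 sites ran over 662 kb of chromosome 18, from -516 to 145 kb, between the genes Csnk1g3 and Gramd3. No site was within 1 kb of the start; the nearest was in exon 2, at 2.04 kb. Upstream lay 14 sites, all intergenic, and downstream 7, of which 3 were in intron 3 and 3 intergenic.

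The strongest Zfp608 site (chr18:55293613-55293813, -144 kb) had 29.10 FPKM at 4 °C and 12.59 at 29 °C, with 2.96 and 3.0 in WT. Its ratio was 2.31 (1.91 to 2.81), and it ranked 143 of all sites. With the 29 °C pool scaled to equal WT reads over the shared windows the ratio was 1.60, below the 2-fold call. The 29 °C density of this window was higher than at any other Zfp608 window, yet the window was not in the 29 °C list. The second strongest lay on the other side of the gene, at 137 kb, with 16.71 and 6.42 FPKM and a ratio of 2.60 (2.0 to 3.42). The 4 most distant sites, between -516 and -478 kb, were weak, with 3.54 to 6.52 FPKM at 4 °C and 1.33 to 1.57 at 29 °C.

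The Zfp608 sites differed in their ratios. The lowest was 1.11 (0.790 to 1.58) at -200 kb, where the densities of 5.97 FPKM at 4 °C and 5.36 at 29 °C could not be separated within counting error. The highest was 4.95 (2.87 to 9.05) at -483 kb, where 6.52 FPKM stood against 1.33. The sites at -83.5, 144 and 145 kb had ratios of 4.47, 4.16 and 4.77. At 144 kb the 29 °C pool, with 1.82 FPKM, was below WT, with 3.20. The median over the 21 sites was 2.41, and 13 (61.9%) were called higher in the cold, against 83.4% of all sites in the list; this difference was not tested.

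All 5 shared Zfp608 sites were upstream, at -400, -352, -200, -106 and -30.4 kb, and had ratios of 1.11 to 1.94. At 29 °C alone, sites were listed at -130 kb, with 4.32 FPKM at 4 °C and 3.88 at 29 °C and a ratio of 1.12 (0.742 to 1.68), and at -83.7 kb, with 7.77 and 3.96. The latter window lay 5 bases from the 4 °C window at -83.5 kb, and the ratio was 1.97 (1.38 to 2.84) in the one and 4.47 (2.98 to 6.93) in the other. The window at -83.7 kb thus had a higher density in the cold pool, and at -130 kb the densities could not be separated within counting error.

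**Figure D2:**
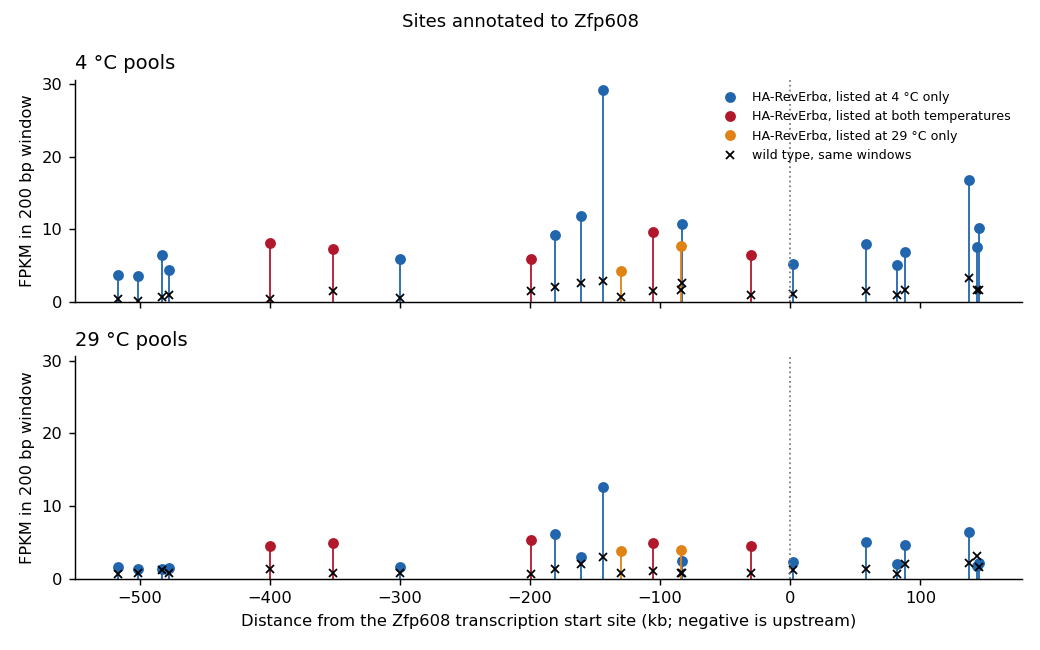
Density in each 200 bp window annotated to Zfp608 (vertical axis, FPKM) by distance from its start (horizontal axis, kb), in the 4 °C pools (top) and the 29 °C pools (bottom); circles are HA-RevErba, coloured by the list that holds the window, and crosses are WT. The window at -144 kb is the highest in both panels, with 29.10 and 12.59 FPKM.

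Among 9 Zfp genes known from fat cell biology, 5 had a site at 4 °C: Zfp423, Zfp36l2, Zfp217, Zfp521 and Zfp36l1. Over all protein-coding genes the share with a site was 21.8%, and over all Zfp genes 11.1%; the difference was not tested. None was listed for Zfp516, Zfp467, Zfp36 or Zfp385a. The 5 genes had 13 sites with a median ratio of 3.41, and 10 of the 13 were called higher in the cold, against 83.4% of all sites. Zfp423 had 5 sites, all listed at 4 °C only. They had 3.93 to 10.91 FPKM at 4 °C and 1.16 to 3.55 at 29 °C; 4 were in introns of the gene and the strongest was at -7.97 kb, with a ratio of 3.08 (2.18 to 4.45). Zfp521 had 1 site, at -112 kb, with 8.56 and 4.20 FPKM in the tagged pools and 1.12 and 0.41 in WT. It was shared, and its ratio was 2.04 (1.45 to 2.90). Of these paralogs, Zfp423 had sites in the cold list alone and Zfp521 in both. Over the whole 4 °C list 14.9% of sites were shared, so sites in the cold list alone are the usual case. Zfp521 had 1 site, and the difference was not tested.

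Zfp217, which works in complexes with the corepressor CtBP and the demethylase Kdm1a, had 2 sites, both shared. The one at -66.6 kb held 17.89 FPKM in the cold and 9.30 at 29 °C, and its ratio was 1.92 (1.53 to 2.43). The other, 6.92 kb away, had 12.09 and 12.84 FPKM and a ratio of 0.941 (0.748 to 1.18), so its densities did not separate at this depth. Zfp36l2 had 4 sites, all in introns of its neighbour Thada and all at 4 °C only. They had 4.17 to 12.56 FPKM at 4 °C and 1.33 to 3.05 at 29 °C, and their ratios ran from 3.16 to 5.33. The single Zfp36l1 site, at 49.0 kb, had 7.30 and 1.57 FPKM and a ratio of 4.67 (2.83 to 8.10). Both CCCH genes thus had 29 °C densities no higher than 3.05 FPKM, where the median over all sites of the 4 °C list was 2.39.

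Among the other paralogs, Zfp609, which binds the cohesin loader Nipbl, had 2 sites in its first intron against 21 at Zfp608. Their ratios were 2.31 (1.60 to 3.37) and 1.30 (0.867 to 1.96). Sites were listed for Zfp281, Zfp703 and Zfp652 and not for their paralogs Zfp148, Zfp503 and Zfp651; most Zfp genes had no site, so a paralog without one is the usual case. In the Z3 complex, which reads modified chromatin, Zfp532 had 2 sites in intron 2 and Zfp592 and Zfp687 had none.

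Of 14 genes listed as partners or targets of the fat cell Zfp proteins, 8 had a site at 4 °C, where 21.8% of all protein-coding genes had one, and none at 29 °C, where 6.3% did. With 14 genes, a count of 0 is near the latter share. They were the fat cell regulators Pparg, Cebpa, Cebpb and Cebpd, the Ebf factors Ebf1 and Ebf3, the corepressor gene Ctbp2 and the BMP mediator Smad1; Prdm16, Ebf2, Ehmt1, Kdm1a, Ctbp1 and Smad4 had none. The strongest was at Pparg, with 17.26 FPKM at 4 °C and 3.30 at 29 °C. All 8 highest-scoring sites were called higher in the cold, where 82.1% of all genes' highest-scoring sites were. Of 7 genes of the KRAB corepressor machinery, Atf7ip and Morc3 had 1 site each, and Trim28, Setdb1, Cbx1, Cbx3 and Cbx5 had none, a share near the 21.8% of all genes.

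The other genes with 3 or more sites differed in where the sites lay. All 8 sites of Zfp462 were in its own introns, from 6.25 to 130 kb, with 3.85 to 10.13 FPKM at 4 °C and 0.5 to 3.88 at 29 °C. Of these, 2 neighbouring sites in intron 7 were shared, each with a ratio of 2.62. Zfp395 had 3 of its 4 sites in its first intron and Zfp618 had 2 of its 5, the other 3 being intergenic. Both genes were listed at 4 °C only, with ratios of 2.43 to 4.80 at Zfp395 and 2.70 to 6.10 at Zfp618.

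Zfp957 had none of its 8 sites in its own introns; 4 were in introns of Vwa8, 1 at the end of Vwa8 and 3 intergenic. Its densities were 3.46 to 14.44 FPKM at 4 °C and 0.590 to 4.78 at 29 °C, and no site was listed at 29 °C. Of the 6 Zfp950 sites, 4 were in introns of Grk5, 1 in an intron of Zfp950 and 1 at its transcript end, and all 3 Zfp354c sites were in introns of Adamts2. In all, 16 of 49 intronic Zfp sites (32.7%) lay in a gene other than the annotated one, the others being 4 of Zfp36l2 in Thada and 1 of Zfp397 in Mapre2; over all genes the share was 29.5%. The lists name the gene with the nearest start, so such a site is tied to the Zfp gene by position alone. Zfp648 had 4 intergenic sites from -138 to -80.3 kb, with 5.19 to 13.58 FPKM at 4 °C, none in the 29 °C list. The 4 Zfp572 sites were likewise intergenic. Zfp330, a nucleolar protein, had 3 intergenic sites; the shared one, at -21.9 kb, had 4.40 and 4.20 FPKM and a ratio of 1.05 (0.704 to 1.56).

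Zfp sites were far from starts. Beyond 50 kb lay 62 of 124 (50%), against 33.8% of all sites, and beyond 100 kb lay 26 (21%), against 16.5%. Zfp608 supplied much of the excess beyond 50 kb and all of that beyond 100 kb. Without it 43 of 103 (41.7%) lay beyond 50 kb, still above the share of all sites. Beyond 100 kb lay 11 (10.7%), below the share of all sites. Intergenic sites were 52.4% of Zfp sites and 44.3% of all sites, and intronic sites 39.5% and 47.8%; without Zfp608 the Zfp shares were 46.6% and 44.7%. At the 19 genes with 1 site, the median distance from the start was 9.75 kb, and at genes with several it was 59.6 kb. Over all genes these medians were 15.7 and 33.3 kb.

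The 19 genes with 1 site had 3.62 to 22.67 FPKM at 4 °C and 0.0900 to 6.92 at 29 °C. They were Zfp3, Zfp36l1, Zfp46, Zfp51, Zfp106, Zfp280d, Zfp281, Zfp365, Zfp397, Zfp521, Zfp574, Zfp644, Zfp688, Zfp715, Zfp768, Zfp770, Zfp809, Zfp839 and Zfp952. Shared sites were found at 3 of them (15.8%), Zfp521, Zfp644 and Zfp770, and at 12 of the 25 genes with several sites (48%). A gene with more sites has more chances to hold a shared one, so these shares are not compared further. The median ratio was 3.11 at genes with 1 site and 2.91 at genes with several, where all genes had 3.1 and 3.03. Called higher in the cold were 17 of 19 sites (89.5%) and 82 of 105 (78.1%), where all genes had 82.9% and 83.7%. The difference was not tested. The order-statistic intervals of the Zfp medians were 2.09 to 4.29 and 2.62 to 3.18. They take sites as independent, which sites of 1 gene in the same pools are not, so the medians are not compared by them.

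Over the 124 sites the median density was 6.72 FPKM at 4 °C and 2.23 at 29 °C in the tagged pools, and 1.12 and 1.21 in WT. The median ratio was 2.94 (order-statistic interval 2.67 to 3.18), and the median over all sites of the list was 3.05 (3.02 to 3.08). Both intervals take sites as independent and are not a test between the medians. Called higher in the cold were 99 of 124 Zfp sites (79.8%), against 83.4% of all sites. At least 3-fold higher were 59, against 51.5% of all sites. The interval of the ratio lay above 1 at 117 of 124, against 95.4% of all sites. No Zfp site was called lower in the cold, against 0.0802% of all sites. By these shares Zfp sites were near the list as a whole, and the choice of windows at 4 °C favours high ratios in both. With the 29 °C pool scaled so that WT reads over the shared windows were equal, 65 Zfp sites (52.4%) were called, against 55.4% of all sites, and the medians were 2.04 and 2.11. Without Zfp608 the median was 3.05 and 86 of 103 (83.5%) were called.

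**Figure D3:**
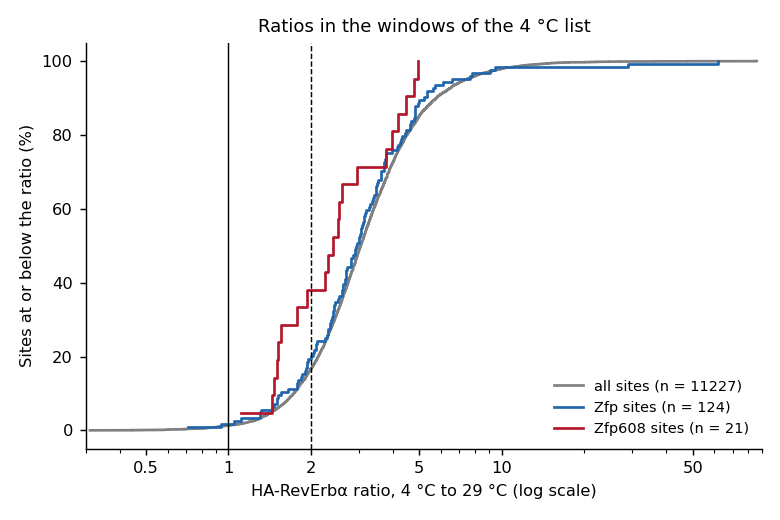
Cumulative share of sites (vertical axis, percent) by ratio of HA-RevErba density at 4 °C to that at 29 °C (horizontal axis, log scale) for all 11227 sites of the 4 °C list (grey), the 124 Zfp sites (blue) and the 21 Zfp608 sites (red); lines mark ratios of 1 and 2. The Zfp and all-site curves run together, with medians of 2.94 and 3.05, and the Zfp608 curve lies to their left, with a median of 2.41.

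The largest ratios rested on few 29 °C reads. In the first intron of Zfp952 there were 65 reads in the cold pool and 1 at 29 °C, which gave 62.0 (10.7 to 2490). The Zfp572 site at -22.3 kb had 61 and 2 reads, a ratio of 29.1 (7.71 to 246). Next came a site at the transcript end of Zfp950, with 8.56 and 0.910 FPKM and a ratio of 9.45 (5.08 to 19.5), and a Zfp957 site with 12.63 and 1.41 FPKM and 9.03 (5.47 to 15.9). By their highest-scoring sites, Zfp365, a centrosomal protein, followed with 6.58 (3.37 to 14.3), Zfp42, a marker of pluripotent cells also called Rex1, with 5.60 (2.62 to 13.7), and Zfp574 with 4.98 (3.14 to 8.26). At Zfp365 the 29 °C density of 0.830 FPKM was near that of WT, with 0.810.

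At the other end, the Zfp438 site at -38.9 kb had 5.03 FPKM at 4 °C and 7.08 at 29 °C, with 0.930 and 0.610 in WT. Its ratio of 0.710 (0.505 to 0.992) was the lowest of the 124 Zfp sites and the one whose interval lay below 1. Over all genes the interval lay below 1 at 46 of 11227 sites. The 2 other Zfp438 sites had ratios of 2.81 (2.04 to 3.92) and 3.74 (2.01 to 7.50), so sites of 1 gene went both ways. The interval included 1 at 6 of the 124 Zfp sites, against 475 of 11227 sites over all genes. Among the 6 were those of Zfp217, Zfp330 and Zfp608 given above. By their highest-scoring sites the genes with the smallest ratios were Zfp831, with 1.30 (1.06 to 1.60), Zfp704, with 1.31 (0.909 to 1.91), Zfp281, with 1.78 (1.12 to 2.87), Zfp3, with 1.80 (1.25 to 2.64), and Zfp740.

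**Figure D4:**
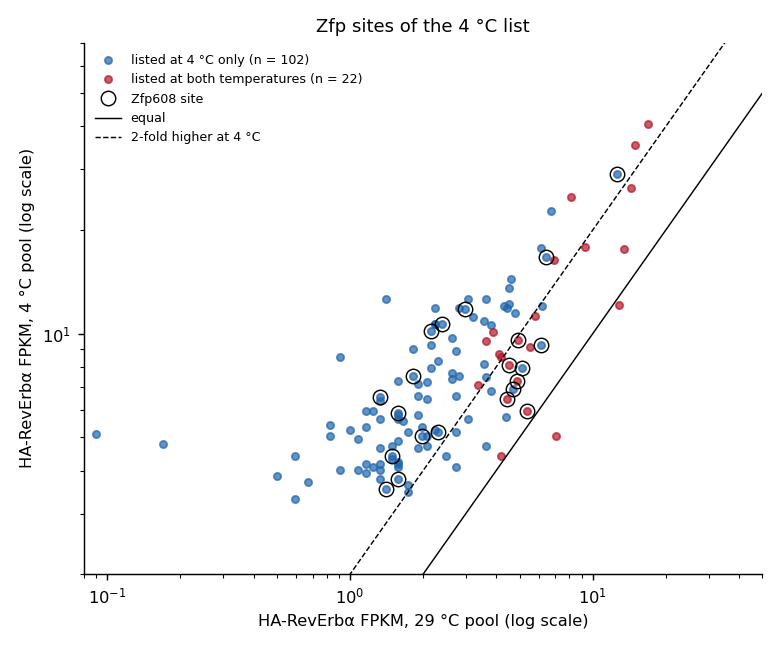
HA-RevErba density at 4 °C (vertical axis) against that at 29 °C (horizontal axis), both in FPKM on log scales, for the 124 Zfp windows of the 4 °C list; red points are listed at both temperatures, blue points at 4 °C only, and open circles mark Zfp608. Most points lie above the dashed line of a 2-fold difference, and 2 points lie below the line of equality, at Zfp438 and Zfp217.

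Of the 26 Zfp sites at 29 °C, 22 (84.6%, 65.1 to 95.6) were shared with the 4 °C list, against 76.5% of all 29 °C sites. As a share of the 4 °C list this was 22 of 124 (17.7%), against 14.9% of all sites. The shared sites belonged to 15 genes: Zfp217, Zfp326, Zfp330, Zfp354c, Zfp438, Zfp462, Zfp521, Zfp572, Zfp608, Zfp644, Zfp652, Zfp740, Zfp770, Zfp831 and Zfp950. Their median ratio was 1.93 and that of the 102 other Zfp sites 3.17, where all genes had 1.88 and 3.28. A window missing from the 29 °C list tends to have a low 29 °C density, so this contrast is partly set by the listing. In the windows of the 29 °C list, 7 of 26 Zfp sites (26.9%) were called higher in the cold, against 31.5% of all sites, and the interval lay above 1 at 19, against 66.8%.

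Besides the windows of Zfp608, 2 Zfp sites were listed at 29 °C only. Zfp407, which in fat cells is known for control of glucose transporter Glut4, was the member with a site in the 29 °C list alone, at -11.2 kb. That window had 10.44 FPKM at 4 °C and 5.03 at 29 °C, with 2.41 and 1.01 in WT, a ratio of 2.08 (1.52 to 2.86). It lay above WT in both pools and was higher in the cold pool. Zfp768 had a 29 °C site at -6.17 kb, with 3.93 and 3.55 FPKM, and a 4 °C site 6.63 kb away, with 4.01 and 1.33 FPKM.

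In each list the tagged pool exceeded WT by at least 3 FPKM and by 4 times within rounding. Of the 102 Zfp windows listed at 4 °C only, 2 reached both limits at 29 °C, the Zfp608 windows at -144 and -181 kb; this was 1.96%, against 1% of all such windows. At 82 of them (80.4%, against 82.9% of all) neither limit was reached. At 18 (17.6%, against 16.2% of all) the 29 °C density was at or below WT.

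Few Zfp genes had a site when set against all Zfp genes in the genome. In the RefSeq table, which has 21031 protein-coding genes with a curated transcript, 44 of 395 Zfp genes (11.1%, 8.21 to 14.7) had a site at 4 °C, against 21.8% of all genes. At 29 °C, 16 of 395 (4.05%, 2.33 to 6.49) had one, against 6.3%. This count leaves out Zfp572, which is no protein-coding gene there, and takes in 1 gene, Zfp267, that the lists carry under another name.

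The share was lower among Zfp genes that lie next to one another. Where neither neighbouring protein-coding gene was a Zfp gene, 37 of 183 (20.2%, 14.7 to 26.8) had a site at 4 °C and 14 (7.65%) at 29 °C. Where 1 or both neighbours were Zfp genes, 7 of 212 (3.30%, 1.34 to 6.68) had a site at 4 °C and 2 (0.943%) at 29 °C. The exact intervals of the 4 °C shares did not overlap, but they take genes as independent and are not a test. Among the members named above, Zfp51, Zfp809 and Zfp952 had Zfp genes on both sides. Sites are assigned to the nearest start, so a gene in a dense cluster can take sites from a shorter stretch of the chromosome; the part of this in the result was not tested. In other families of transcription factor genes the 4 °C share was 9 of 17 (52.9%, 27.8 to 77.0) for Klf genes, 25 of 63 (39.7%, 27.6 to 52.8) for Fox and Sox genes and 7 of 41 (17.1%, 7.15 to 32.1) for Zbtb genes. The Klf and the Fox and Sox intervals lay above that of the Zfp genes, and the Zbtb interval overlapped it. The differences between families were not tested. Families can also differ in the stretch of chromosome from which their genes take sites, and the part of this was not tested.

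**Figure D5:**
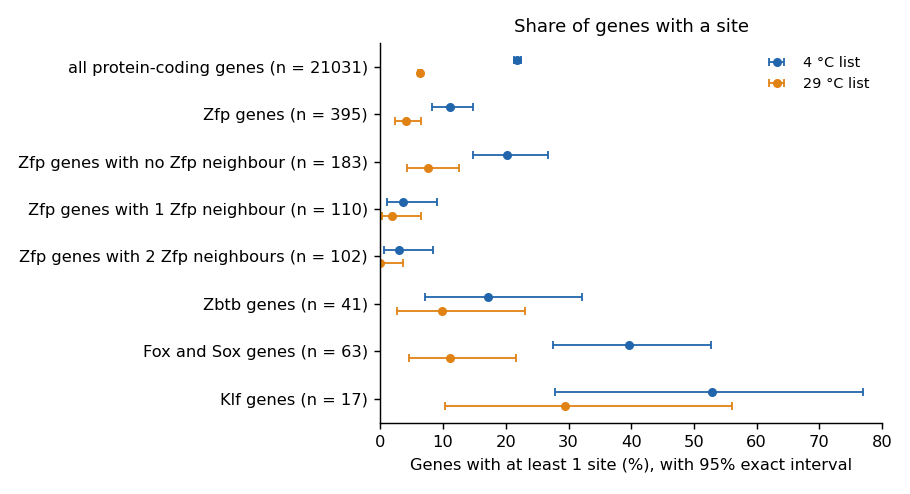
Percent of genes with at least 1 site (horizontal axis) in the 4 °C list (blue) and the 29 °C list (orange) for all protein-coding genes, Zfp genes, Zfp genes by number of Zfp neighbours, and 3 other families; points are shares and bars exact 95% intervals. At 4 °C, Zfp genes without a Zfp neighbour, at 20.2%, lie near all genes, at 21.8%, and those with Zfp neighbours lie lower.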

How the data were processed

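Binding was measured in 12 libraries, and the deposited lists give values of 4 pools. The submitters' processing notes name the aligner Bowtie2 2.1.0, the peak software HOMER 4.10 and build mm9; the sources used here give neither the peak settings nor whether window starts count from 0 or 1. Per the file headers, the values the authors deposited are FPKM in 200 bp windows, a peak score, which from the values is reads per 10 M, and differences named minus input, which equal HA-RevErba minus WT.

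After 0.01 was taken off, FPKM values came in whole steps of 1 read in each pool (100% within 0.01 FPKM), and from the steps reads per window and pool sizes were recovered. In the HA-RevErba pools 3 reads are worth 0.235 FPKM at 4 °C and 0.247 at 29 °C. Ratios and shares have exact Clopper-Pearson intervals at the 95% level, which cover counting error only. They take reads, sites or genes as independent. Since reads are not independent molecules, the intervals of ratios can be too narrow even for counting error. The code was tested on simulated data. Python 3.11.15, pandas 2.3.3, scipy 1.17.1 and matplotlib 3.10.9 were used. All 45 gene IDs matched the gene table of assembly GRCm38.p6, which served for names, neighbours and promoter sequences.

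Named genes were those with 3 or more sites, with the 10 highest-scoring sites, with a shared or 29 °C-only site, with the 5 largest or smallest ratios at their highest-scoring site, or in lists of fat cell, paralog, Z3 complex, partner and KRAB corepressor genes; promoter genes, the site with the lowest ratio, those resting on 1 or 2 reads, and the full list of genes with 1 site were named after their values were seen. The members and lists were chosen with earlier results of these data known. Alternatives were a stricter threshold, a distance limit, membership, overlap, scaling, WT subtraction, a pseudocount of 0.5 and a call at 3-fold.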

Additional observations from a re-analysis of the deposited data

How the results depend on the processing

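Requiring 6 FPKM and 6 times WT left 27 Zfp sites at 4 °C and 7 at 29 °C, 17 genes, 6 shared sites, 8 genes with several sites, a median ratio of 2.62 and 19 sites called higher in the cold. Keeping sites within 50 kb of the start left 62 sites at 4 °C, 11 at 29 °C, 9 shared and 49 called. Of the 4 °C sites this left out, 19 were at Zfp608. Shares over all sites are not given for the stricter threshold or the distance limit, so Zfp sites are not set against the list there. Scaling the 29 °C pool so that WT reads over shared windows were equal (a factor of 1.44) lowered the median to 2.04, the calls to 65 and the ratio at the strongest Zfp608 site to 1.60; all sites then had a median of 2.11 and 55.4% called. Subtracting WT raised the median to 4.44 (4.96 over all sites), adding 0.5 FPKM gave 2.57, and a 3-fold call left 59 sites (51.5% of all sites). In the 24 other recomputed values, which include leaving out the CCCH genes, other overlaps and leaving out Zfp608 (chosen after seeing the data), medians and single ratios moved by less than their counting interval and counts by less than 1.5 times. Neither the median over Zfp sites nor the ratio at the strongest Zfp608 site fell below 1 under the alternatives run. Ratios at the other Zfp608 sites were not recomputed. No paired analysis was possible because the values come from 1 pool per genotype and temperature; for the same reason no library could be left out. Precision is limited by the 29 °C pool, where several Zfp windows rest on 1 to 10 reads.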
